A study of Mus musculus with 99 samples.

Results

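Levels of 9 genes that mature oligodendrocytes use to build and hold the myelin sheath were compared across 5 brain regions of juvenile mice: Mbp, Mog, Mag, Mobp, Cnp, Mal, Cldn11, Ugt8a and Opalin. They were taken by name, as 9 of 55335 gene identifiers in the deposited count tables, and all 9 were matched through GENCODE symbols. The series holds 99 bulk RNA-seq libraries of wildtype mice from C57BL/6 dams, made from tissue punches of the ventral tegmental area (VTA), ventrobasal thalamus (VBT), primary somatosensory cortex (S1), prelimbic cortex (PrL) and nucleus accumbens (NAc). In the fentanyl groups the dam drank water with 10 µg/ml fentanyl from the first day of gestation until weaning, so the young were exposed through the dam and not dosed themselves. The water groups had no drug, and each region has female and male libraries of either kind, 20 groups of 4 or 5. Litters and animals are not given in the labels, nor whether the regions were punched from the same mice, so the p-values measure the spread between these libraries only.

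Myelin is the stack of oligodendrocyte membrane wrapped around axons that lets impulses jump from node to node. Its inner faces are held together by the basic protein encoded by Mbp, its lipids include galactocerebroside, and adhesion proteins sit on the turn next to the axon and on the outer surface. Myelination in the mouse brain starts after birth and runs from the brainstem and thalamus towards the cortex. In bulk tissue fewer oligodendrocytes and less RNA per oligodendrocyte cannot be told apart.

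The library VTA male water replicate 3 held counts for 6333 genes against 24079 to 27347 in the other 98 and was left out; in it Mog stood at 832 CPM (a gene's count as a share of its library's gene counts, in counts per 1e6) and Ugt8a at 129 CPM. The 98 libraries used held 23032078 to 52069639 gene counts, and the lowest count of any of the 9 genes in any of them was 119. The 6 markers of midbrain dopamine neurons, Th among them, summed to 335 to 1733 CPM in VTA libraries and to at most 69.3 elsewhere. The summed level of 6 thalamus markers was 1485 CPM in VBT male water 3, 1716 in VBT male fentanyl 5, 1942 in VBT male fentanyl 4 and 2314 in VBT female water 2, the 4 lowest of 20 VBT libraries, whose highest was 4343. VBT male water 3 also had the highest sum of 6 striatum markers in VBT, 855 CPM. The next highest of the 20 was 572 CPM and the median 119. The 6 choroid plexus markers summed to 4575 CPM in VBT female water 2, 1045 in VTA male water 2, 658 in VBT male fentanyl 5, 418 in S1 female water 2 and 392 in VTA female water 5, the 5 highest of the 98 libraries. In PrL the dopamine neuron markers summed to 69.3 CPM in male water 3 and 32.1 CPM in female water 5. In NAc the 6 cortex markers summed to 55.7 to 1379 CPM and the 6 striatum markers to 1373 to 4909 CPM; NAc female water 1, with the most cortex and the fewest striatum markers, reached the S1 range of cortex markers (1257 to 1778 CPM). The comparisons of VBT with PrL, S1 with PrL and VTA with VBT and the fentanyl contrasts in VBT and PrL are given for the 9 genes with and without the VBT and PrL libraries named here.

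The 9 genes were highest in the thalamus and the ventral tegmental area, lower in the nucleus accumbens, lower again in somatosensory cortex and lowest in prelimbic cortex. In water libraries their summed level was 18204 ± 5962 CPM in VBT (SD, n = 10), 14568 ± 2962 in VTA (n = 9), 5091 ± 812 in NAc (n = 10), 2476 ± 627 in S1 (n = 9) and 932 ± 495 in PrL (n = 10). Each gene followed that order of means.

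Mbp, on chromosome 18 (GRCm38, 82475146 to 82585637, plus strand), encodes the cytoplasmic protein that compacts the membrane layers. The counts are per gene, so transcripts of this locus made outside myelin are part of its level. Its level in water libraries ran from 5953 to 15262 CPM in VBT (median 8091), from 4988 to 11521 in VTA (median 7634) and from 1746 to 3022 in NAc (median 2258). In S1 it ran from 894 to 1825 CPM (median 1085) and in PrL from 256 to 982 CPM (median 356). VBT and VTA overlapped over most of their range, NAc lay below both with no shared values, and the ranges of NAc and S1 and of S1 and PrL touched through 1 library each.

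Mobp (chromosome 9, 120149707 to 120181484, plus strand) encodes another small basic protein of compact myelin. It went from 3033 to 7050 CPM in VBT (median 3736), from 2464 to 4438 in VTA (median 3054), from 876 to 1431 in NAc (median 1094), from 316 to 957 in S1 (median 489) and from 70.2 to 394 in PrL (median 116). The order of the regions was that of Mbp, and the distance from VBT to PrL was the widest of the 9 genes.

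Mag, Mog and Cldn11 encode proteins on the adhesive or outer membranes. Mag (chromosome 7, 30899176 to 30914873, minus strand), the sialic acid binding protein on the turn next to the axon, averaged 949 ± 330 CPM in VBT (SD, with n as above), 743 ± 155 in VTA, 262 ± 45.1 in NAc, 126 ± 25.5 in S1 and 48.8 ± 23.9 in PrL. Mog (chromosome 17, 37010743 to 37023398, minus strand), the glycoprotein of the outermost layer that appears late in maturation, averaged 331 ± 120, 269 ± 47.6, 97.3 ± 16.8, 50.2 ± 13.7 and 16.3 ± 9.60 CPM in the same order. Cldn11 (chromosome 3, 31149920 to 31164324, plus strand), which forms the tight junctions that seal the sheath, averaged 699 ± 281, 488 ± 79.9, 233 ± 45.2, 95.6 ± 25.3 and 41.5 ± 17.3 CPM. For Mag and Cldn11 the lowest NAc library (192 and 170 CPM) stood above the highest S1 library (184 and 153 CPM).

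Cnp (chromosome 11, 100574904 to 100591729, plus strand) encodes the phosphodiesterase that keeps cytoplasmic channels open between the layers, and Mal (chromosome 2, 127633226 to 127656695, minus strand) a proteolipid that sorts membrane to the sheath. Cnp averaged 1339 ± 484 CPM in VBT, 1045 ± 159 in VTA, 451 ± 71.5 in NAc, 243 ± 45.9 in S1 and 104 ± 42.5 in PrL. Mal averaged 1185 ± 479, 832 ± 125, 451 ± 63.7, 211 ± 57.9 and 70.8 ± 32.4 CPM in the same order. At the 3' end of Cnp, 154 bases of exon overlap the gene Dnajc7 on the other strand, and Mobp shares 79 exon bases with Gm38642 on its own strand; whether the counting used strand is not given in the sources used here, so reads from these stretches are uncertain.

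Ugt8a (chromosome 3, 125865271 to 125938619, minus strand), the enzyme that makes galactocerebroside, was the gene nearest to equal in the 2 myelin-rich regions, at 333 ± 122 CPM in VBT and 327 ± 71.5 in VTA. It stood at 116 ± 22.8 CPM in NAc, 58.0 ± 11.9 in S1 and 23.1 ± 13.1 in PrL. Opalin (chromosome 19, 41061710 to 41077113, minus strand), a small membrane glycoprotein of mature oligodendrocytes, was the least abundant, with 94.4 ± 33.2 CPM in VBT, 66.0 ± 9.45 in VTA, 30.9 ± 5.03 in NAc, 17.4 ± 4.06 in S1 and 6.04 ± 2.20 in PrL. Per kilobase of exon, the scale on which genes can be set against each other, the highest level in VBT was that of Mbp at 1072 CPM per kilobase, followed by Mobp at 613, and the lowest that of Opalin at 32.1.

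**Figure D1:**
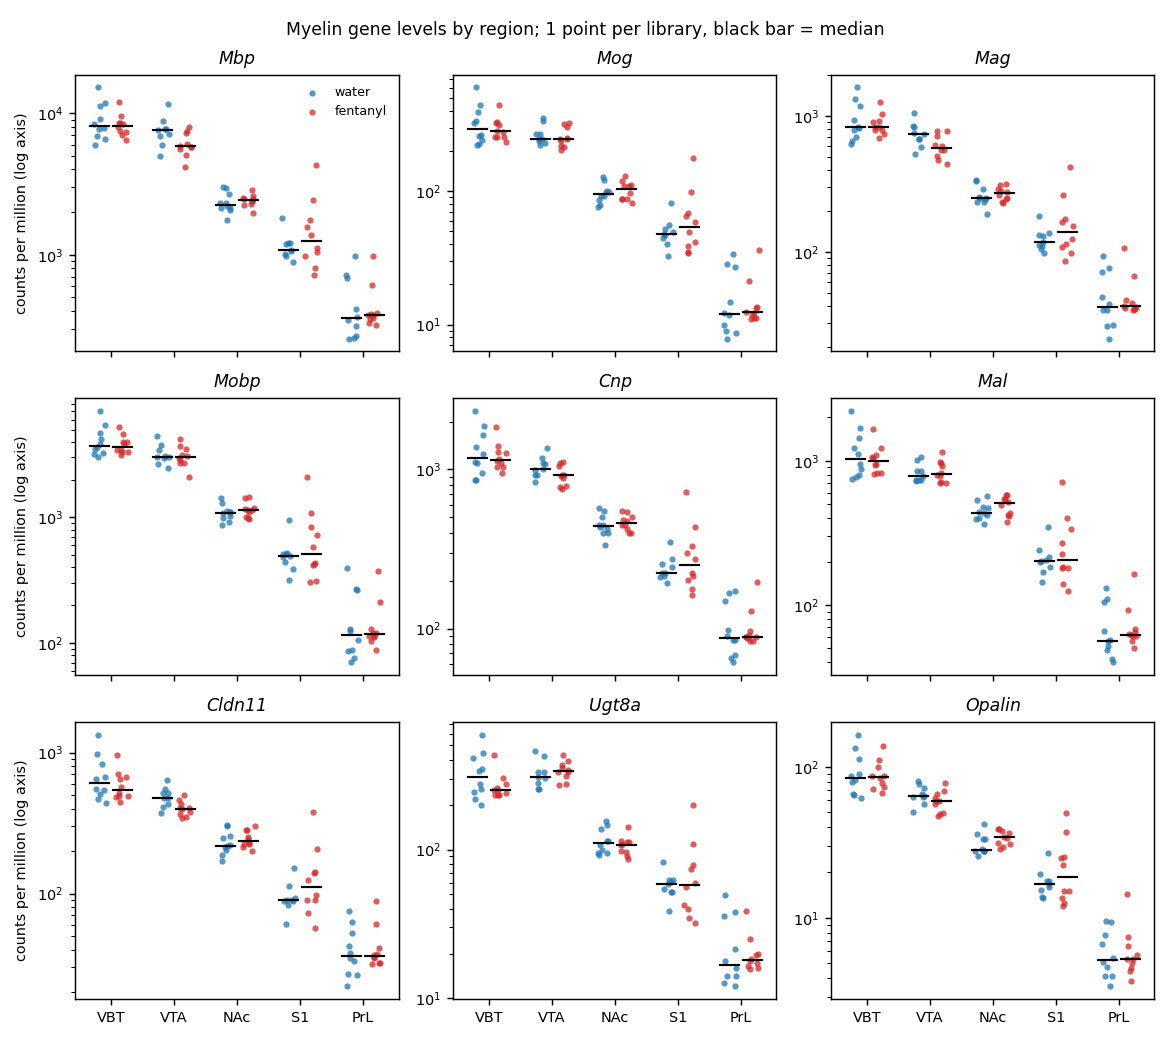
Levels of the 9 genes in CPM (log axis) by region, 1 point per library, water in blue and fentanyl in red, with a black bar at the median. Every panel steps down from VBT and VTA through NAc and S1 to PrL, and the red and blue points of a region share most of their range.

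The regions were compared pair by pair in the 48 water libraries, averaged over the sexes, with edgeR's quasi-likelihood test and Benjamini-Hochberg adjustment over 21468 genes. A gene is said to have passed when its adjusted p was under 0.05. All 9 genes passed in 9 of the 10 pairs. The regions differ in a large share of all genes, and that background was 68.4% of genes for VBT against PrL, 68% for VBT against S1, 67.8% for VBT against NAc, 67.6% for VTA against S1, 66.5% for VTA against PrL and 64.8% for VTA against NAc. It was 53.3% for S1 against NAc, 50.3% for PrL against NAc, 52.5% for VTA against VBT and 37.3% for S1 against PrL.

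Against PrL, VBT was higher by 13.2-fold for Cnp, 14.8-fold for Ugt8a, 16.0-fold for Opalin, 17.2-fold for Mal and for Cldn11, 20.3-fold for Mbp, 20.9-fold for Mog and 27.0-fold for Mobp, with Mag (4.32 ± 0.22 SE on the log2 scale) just under Mbp. On the log2 scale these differences had a median of 4.11, with standard errors between 0.18 and 0.27, against a median of -0.00 over all genes tested. VTA stood between 9.50-fold (Cnp) and 18.9-fold (Mobp) above PrL. Cnp and Mobp were thus at the 2 ends in either comparison, which share the PrL libraries. VBT was 11.6-fold (Cnp) to 24.2-fold (Mobp) above PrL without VBT female water 2 and male water 3, and 15.2-fold (Cnp) to 36.7-fold (Mobp) without PrL female water 5 and male water 3, both alternatives chosen after the data were seen; all 9 genes passed in each.

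NAc took the middle place, with libraries that differed in cortex and striatum markers as given above; the part of this in its level was not tested, and all 9 genes passed against each other region with any 1 NAc library left out. Against it, VBT was higher by 2.85-fold (Mal) to 4.19-fold (Mbp) and VTA by 1.83-fold (Mal) to 3.22-fold (Mbp). PrL was lower than NAc by 4.10-fold (Cnp) to 6.47-fold (Mobp). In all these pairs the water libraries of the 2 regions did not overlap for any of the 9 genes.

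The 2 cortical regions differed from each other. S1 was 2.24-fold (Cldn11) to 3.10-fold (Mobp) above PrL, with log2 differences of 1.16 ± 0.19 and 1.63 ± 0.24 (SE). The libraries did not overlap for Mag, Cnp, Mal and Opalin, and overlapped for the other 5 genes, in each of which PrL female water 5 reached into the range of S1, joined by male water 3 for Cldn11. All 9 genes passed without either library, and with both left out S1 was 2.64-fold (Cldn11) to 4.21-fold (Mobp) above PrL. S1 was 1.68-fold (Opalin) to 2.37-fold (Cldn11) below NAc, where Mag, Mal, Cldn11 and Ugt8a did not overlap.

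VTA and VBT lay closest. The 9 log2 differences of VTA against VBT ran from -0.16 for Ugt8a to -0.64 for Mal and Opalin, and the libraries of the 2 regions overlapped for every one of the 9 genes. The count that passed was 5 of 9: Opalin (-0.64 ± 0.16 SE, adjusted p = 0.000798), Mal (-0.64 ± 0.19, adjusted p = 0.00453), Cldn11 (-0.63 ± 0.19, adjusted p = 0.00449), Cnp (-0.48 ± 0.17, adjusted p = 0.0186) and Mag (-0.47 ± 0.20, adjusted p = 0.0424), in edgeR's test. That share is near the 52.5% of all genes that passed in this pair. Mbp (-0.38), Mog (-0.43), Mobp (-0.52) and Ugt8a did not pass.

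The calls of Mag and Cnp in this pair changed with single libraries. VBT female water 2 and male water 3, which had few thalamus markers, also had the highest levels of the 9 genes in their groups, so the difference is smaller without them whatever their thalamus markers. With both left out, an alternative chosen after the data were seen, 3 of the 9 genes passed, Mag and Cnp no longer among them (adjusted p = 0.195 and 0.122 in edgeR's test), and Ugt8a stood at 0.01. The count was also 3 without VBT female water 2 alone. Mag also lost its call, with adjusted p between 0.0591 and 0.108, when any one of VBT female water 1 or 2, VBT male water 3 or 4, VTA female water 2, 3 or 4, or VTA male water 1, 4 or 5 was left out (its log2 difference was -0.47 without VTA male water 1, as with all libraries), and Cnp without VBT female water 2 (adjusted p = 0.0581). Mobp passed without VTA female water 5 or PrL female water 5, Mbp without the first of these and Mog without the second, which took the count to 7. With PrL female water 5 and male water 3 both left out, the count was 8: Mbp, Mog and Mobp passed at the same log2 differences (-0.38, -0.43 and -0.52), since all regions share 1 estimate of the spread. Of the remaining alternatives, the absence of a filter on low counts lost Mag (adjusted p = 0.0603) and offsets for exon length gained Mobp (adjusted p = 0.0498), both in edgeR's test.

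The 9 genes also moved together between libraries of the same group. Each gene was put on the log2(CPM + 1) scale and centred on its group mean, and was then set against the mean of the other 8 over the 98 libraries. Pearson's r was 0.984 for Cnp, 0.983 for Mog, 0.981 for Mbp, 0.980 for Mal, 0.976 for Mag, 0.967 for Mobp, 0.962 for Cldn11, 0.959 for Ugt8a and 0.927 for Opalin. It is a description, since the genes share the depth, the dissection and the cells of each library. Within NAc, where libraries of a group differed least, r ran from 0.676 (Opalin, n = 20) to 0.947 (Mbp), and within S1 from 0.975 (Opalin, n = 19) to 0.998 (Mbp).

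The libraries of a group differed by up to 6.76-fold. The coefficient of variation went from 3.06% for Cnp in PrL male fentanyl libraries to 88.6% for Mobp in PrL female water libraries. In S1 female fentanyl libraries Mbp stood at 811, 1040, 1579 and 1389 CPM in 4 libraries and at 4293 CPM in the fifth, above every other S1 library. In PrL female water libraries it stood at 313, 364, 258, 256 and 982 CPM. In VBT male water libraries it stood at 7752, 7800, 15262, 11290 and 8382 CPM. The libraries at 4293, 982 and 15262 CPM were the highest of their groups for each of the 9 genes.

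**Figure D2:**
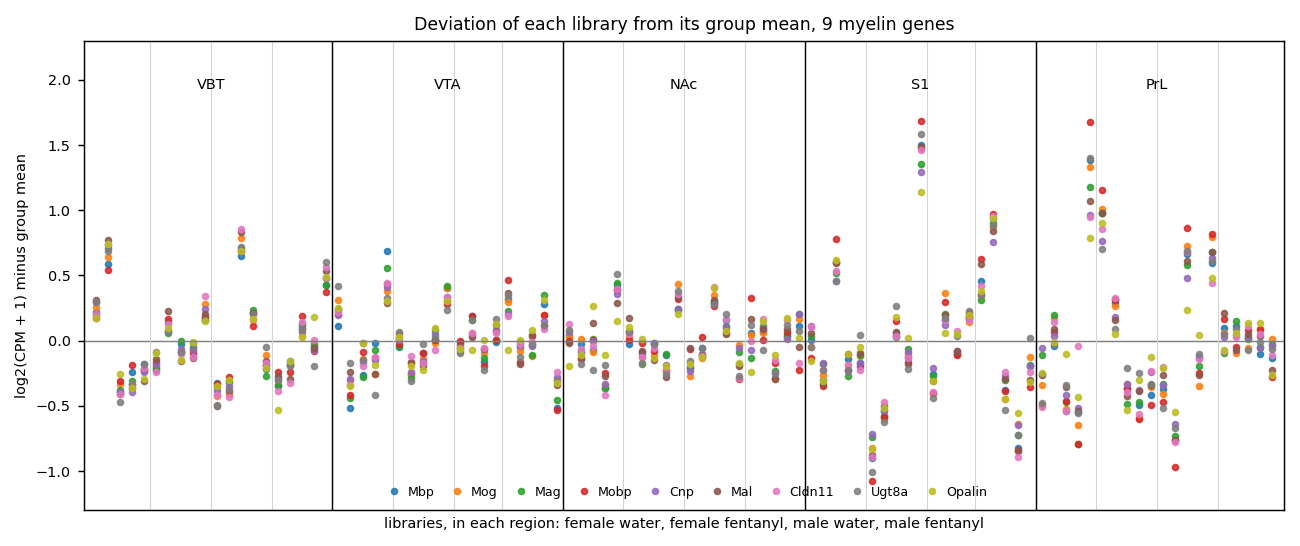
Deviation of each library from its group mean on the log2(CPM + 1) scale, 1 column per library and 1 colour per gene, with regions split by black lines and groups by grey lines. The 9 genes of a library sit close together, and the widest deviations are in S1 (female fentanyl 5, the highest S1 column) and PrL (female water 5, the highest PrL column).

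Of 12076 genes with a mean of at least 5 CPM, those most like the 9 genes by the same measure included Fa2h (r = 0.966), Trf (0.960), Adamts4 (0.957), Gpr37 (0.955), Tmem88b (0.954), Gjc3 (0.953), Tspan2 (0.953), Ermn (0.953) and Prr18 (0.951), each over 98 libraries. Fa2h encodes the enzyme that hydroxylates the fatty acids of myelin lipids, Trf transferrin, which oligodendrocytes make in quantity, and Gjc3 a connexin of oligodendrocytes. The factor Myrf, which switches on myelin genes in maturing oligodendrocytes, was 11th with r = 0.943.

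The stretch before the transcription starts of the 9 genes was read from RefSeq (GRCm38.p6, a table that holds all 9). Mag has 3 starts, of which the one farthest upstream is shown. Searched on both strands over 250 bases were the core letters bound by SOX factors, ACAAAG or ACAATG, and those given for MYRF, CTGGCAC or CTGGTAC; no letters of one overlap those of another in the stretches shown. Mag and Cnp hold a match to each factor's letters, Mog one to MYRF's and Opalin one to SOX's, and these 4 are shown with the matches in capitals, 5' to 3' on the strand of the gene.
Mag, chr7:30914923-30915172, minus strand: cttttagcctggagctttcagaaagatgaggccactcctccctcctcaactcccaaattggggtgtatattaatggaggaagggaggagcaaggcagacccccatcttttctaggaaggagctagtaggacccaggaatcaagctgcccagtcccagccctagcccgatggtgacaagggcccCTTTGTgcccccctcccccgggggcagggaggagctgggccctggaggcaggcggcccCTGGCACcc
Cnp, chr11:100574689-100574903, plus strand: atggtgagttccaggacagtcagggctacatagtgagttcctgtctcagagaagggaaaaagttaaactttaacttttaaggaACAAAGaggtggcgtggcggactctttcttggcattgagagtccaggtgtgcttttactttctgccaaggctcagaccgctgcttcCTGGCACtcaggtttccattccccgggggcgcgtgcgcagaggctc
Mog, chr17:37023399-37023648, minus strand: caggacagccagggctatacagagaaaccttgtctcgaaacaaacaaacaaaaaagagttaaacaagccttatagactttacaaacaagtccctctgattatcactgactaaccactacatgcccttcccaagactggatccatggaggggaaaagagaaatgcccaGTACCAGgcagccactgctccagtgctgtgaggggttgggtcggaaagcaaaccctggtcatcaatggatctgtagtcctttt
Opalin, chr19:41077114-41077363, minus strand: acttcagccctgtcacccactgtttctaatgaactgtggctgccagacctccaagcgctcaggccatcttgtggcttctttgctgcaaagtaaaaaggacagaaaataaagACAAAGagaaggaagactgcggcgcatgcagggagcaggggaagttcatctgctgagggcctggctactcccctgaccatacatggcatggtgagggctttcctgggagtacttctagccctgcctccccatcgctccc
In Mag, CTGGCAC begins 9 bases before the start and ACAAAG lies on the opposite strand with its first shown letter 67 bases before it. In Cnp, ACAAAG begins 167 and CTGGCAC 81 bases before the start, with the sequence shown ending before the first annotated exon, at 215 bases. The CTGGTAC of Mog is on the opposite strand, 83 bases before the start, and the ACAAAG of Opalin begins 139 bases before it. Of the 8 genes other than Mbp, whose stretch is not reported here, 4 (Cnp, Mag, Mobp and Opalin) hold ACAAAG or ACAATG, which 25.2% of 32851 promoter stretches of this length hold, and 3 of the 8 (Cnp, Mag and Mog) hold CTGGCAC or CTGGTAC, which 5.93% hold. These are matches of letters and not shown to be binding sites, and binding was not measured here.

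Further genes of the lineage were taken from 3 lists: 32 other genes of myelin and mature oligodendrocytes, 10 transcription factors, and 11 genes of precursors and newly formed cells. Between VBT and PrL, where 68.4% of all genes passed, 31 of the 32 other myelin genes were higher in VBT and 1 lower, with a median log2 difference of 3.41 (3.28 without the 2 VBT and 3.62 without the 2 PrL water libraries named above, with the same counts). Qdpr (2.79 ± 0.09 SE), Plekhb1 (3.26 ± 0.12) and Car2 (2.13 ± 0.09) had the smallest p. The 1 lower gene, Tppp, a tubulin-binding protein that neurons also express, differed by -0.27 ± 0.07.

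All 10 factors were higher in VBT than in PrL, with a median of 2.46. Olig1 went from 47.6 ± 9.91 CPM in PrL to 265 ± 54.3 in VBT, Olig2, which with Olig1 directs cells into the lineage, from 14.8 ± 2.90 to 75.8 ± 15.6, and Nkx6-2, a factor of maturing oligodendrocytes, from 1.61 ± 0.732 to 34.4 ± 9.17 (SD, n = 10 each). Myrf stood at 211 ± 55.2 CPM in VBT, 175 ± 32.5 in VTA, 55.5 ± 10.2 in NAc, 30.5 ± 6.11 in S1 and 13.9 ± 5.91 in PrL, in the order of the 9 genes.

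Of the 11 precursor and early genes, 10 were higher in VBT than in PrL and 1, Tnr, was lower (-0.46 ± 0.07 SE), and their median was 0.70. The genes of newly formed oligodendrocytes Bcas1 (3.90 ± 0.16) and Enpp6 (3.43 ± 0.20) had differences near those of the 9 genes, and Neu4, a sialidase gene, differed by 1.70 ± 0.08. Pdgfra, the growth factor receptor that marks precursors, ran only from 62.5 ± 5.68 CPM in PrL to 70.8 ± 9.99 in VBT and 86.6 ± 7.64 in VTA, and Cspg4, the precursor proteoglycan NG2, from 24.3 ± 2.67 to 33.7 ± 3.53 and 37.5 ± 2.63. Both were added after their values were seen. Pdgfra stood at 66.5 ± 7.48 CPM in NAc and 67.1 ± 8.32 in S1, and Cspg4 at 25.6 ± 2.49 and 25.3 ± 4.27. Not every gene of the list was so even: C1ql1, which precursors and some neurons express, was higher in VTA than in PrL by 2.66 ± 0.17 (SE) and than in S1 by 3.16 ± 0.18 on the log2 scale, against 1.84 to 2.64 for the 9 genes between VTA and S1.

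**Figure D3:**
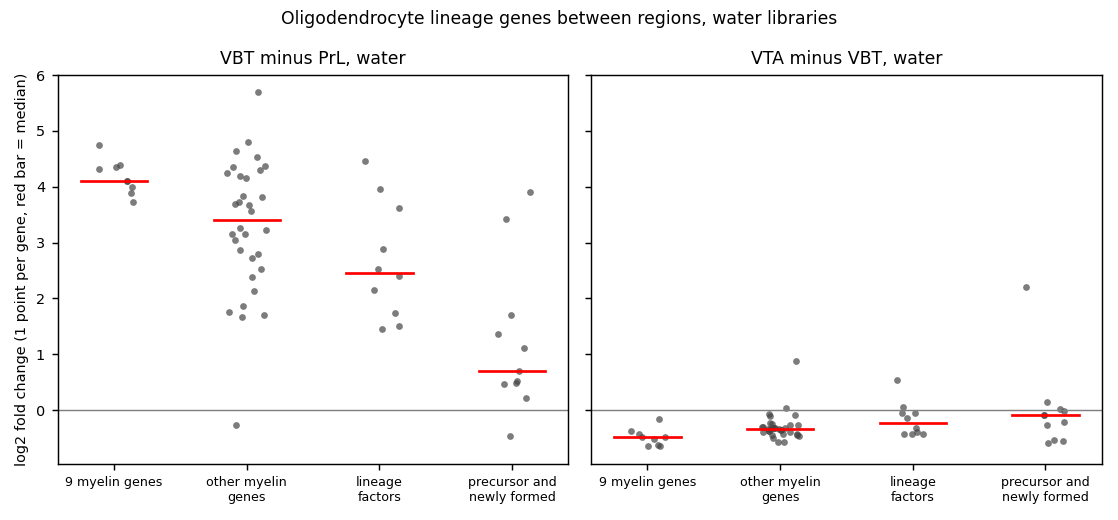
Log2 fold change between regions in water libraries for each gene of 4 lists, 1 point per gene and a red bar at the median. In VBT minus PrL the medians step down from 4.11 for the 9 genes to 3.41, 2.46 and 0.70, while in VTA minus VBT all 4 medians lie between -0.48 and -0.09.

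In VTA against VBT, where 52.5% of all genes passed, the lists split in either direction. Of the other myelin genes 15 of 32 were lower in VTA, led by Nfasc (-0.57 ± 0.09 SE), an adhesion protein of the node and its flanks, Jam3 (-0.46 ± 0.07) and Car2 (-0.42 ± 0.09), and 1, the protease gene Klk6, was higher (0.87 ± 0.32, 41.2 ± 14.9 CPM against 21.1 ± 6.15). Of the factors 5 of 10 were lower, led by Olig2 (-0.43 ± 0.10), Olig1 (-0.42 ± 0.11) and Sox10 (-0.42 ± 0.13), and Zfp536 was higher (0.53 ± 0.12). Of the early genes 4 of 11 were lower, led by Neu4 (-0.54 ± 0.08), Bcas1 (-0.59 ± 0.15) and Gpr17 (-0.26 ± 0.09), and C1ql1 was higher (2.20 ± 0.16, 39.4 ± 12.9 CPM against 7.82 ± 1.40). Without VBT female water 2 and male water 3, 10 of the other myelin genes, 3 of the factors and 2 of the early genes were lower, and 1, 1 and 2 higher. Of the genes named here Gpr17 then lost its call (-0.16, adjusted p = 0.104 in edgeR's test), and the others passed in the same direction.

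Peripheral myelin shares Mbp, Mag and Mal, so genes of Schwann cells were checked. Egr2 was at 0 in all water libraries and Pmp2 was at 0 outside VBT, where its mean was 0.00772 CPM. A 0 in every water library cannot tell absent Egr2 RNA from reads that the counting did not assign to that gene. Egr2 is therefore no check on Schwann cells here. The sum of the list of 6 ran from 48.3 to 189.9 CPM and was nearly all Drp2, which was lowest in VBT (57.4 ± 9.04 CPM) and highest in S1 (171 ± 14.5).

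Fentanyl was set against water within each region, in females, in males, averaged over the sexes and as the difference between the sexes, which gives 180 tests of the 9 genes. None of the 180 passed in edgeR's quasi-likelihood test. An unadjusted p under 0.05 was found for 2 (Cldn11 averaged over the sexes in VTA, Opalin between the sexes in PrL), the smallest adjusted p was 0.0643, and DESeq2's Wald test called 1, Cldn11 averaged over the sexes in VTA. The background was 22% of 19822 genes in VTA males and 23.1% averaged over the sexes, 0.142% in S1 females and 1.03% averaged, 0.021% in PrL females and 0.697% averaged, and 0.662% in NAc males; it was 0% in the other contrasts, among them all 4 in VBT.

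In VTA, Cldn11 came nearest. Its level was 548, 371, 411, 431 and 638 CPM in the female water libraries and 402, 365, 351, 377 and 498 in the female fentanyl libraries. In males it was 480, 518, 480 and 518 CPM with water and 462, 398, 403, 431 and 344 with fentanyl. The female groups overlapped and the male groups did not, the only group pair without overlap among the 9 genes in any region. Averaged over the sexes the log2 fold change was -0.27 ± 0.10 (SE; 95% interval -0.49 to -0.06), with an adjusted p of 0.0643 in edgeR's test across all genes. With offsets for GC content the value was -0.24 (adjusted p = 0.225) and with the few-gene library kept -0.33 (adjusted p = 0.296), so the fold change was of like size. The adjusted p was under 0.05 with DESeq2 (0.0359), with the share of reads outside exons as a covariate (0.0104) and with the filter of a mean of 50 counts (0.0474).

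Mbp averaged 7453 ± 2505 CPM in VTA female water and 6078 ± 1099 in female fentanyl libraries (SD, n = 5 each), and 7738 ± 785 in male water (n = 4) and 6117 ± 1328 in male fentanyl libraries (n = 5). Its log2 fold changes, -0.32 in females and -0.30 in males, had intervals from -0.76 to 0.12 and to 0.17. With the share of reads outside exons as a covariate Mbp stood at -0.54 in males and passed (adjusted p = 0.0452 in edgeR's test), and averaged over the sexes Mbp (-0.45, adjusted p = 0.0152) and Mag (-0.42, adjusted p = 0.0251) passed. Without the covariate Mag stood at -0.36 in females and -0.23 in males. In females all 9 genes were below 0 (-0.08 to -0.36), with and without the GC offsets, and ran from -0.18 to 0.02 without VTA female water 5, whereas in males Mal (0.26), Ugt8a (0.25), Mog (0.11) and Mobp (0.09) were above 0 and the other 5 below, and no gene's difference between the sexes passed (smallest adjusted p = 0.468). With GC offsets Mag stood at 0.08, Cnp at 0.11 and Ugt8a at -0.04 in males, with exon length offsets Opalin at 0.03, and with the few-gene library kept Mog at -0.26 and Mobp at -0.02, so the sign of these 6 in males depends on the setting.

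Other genes of the lineage did pass in VTA, where the sums of some markers of other cells had different medians in the groups. The 5 blood markers in sum ran from 105 to 572 CPM with fentanyl and from 79.6 to 329.7 with water in females (medians 241 and 100.5), and from 82.6 to 489.6 and from 74.0 to 248 in males (medians 203 and 91.0). Cortex markers had medians of 41.8 and 12.2 CPM in females (highest 160.1 and 23.6) and of 18.8 and 11.1 in males (highest 66.1 with fentanyl), and dopamine neuron markers medians of 1150 and 1295 in females and of 678 and 1143 in males (lowest 335 and 864). The groups overlapped for each of these sums. Averaged over the sexes none of the 5 blood and 6 dopamine neuron markers passed, 1 of 5 cortex markers tested rose, 3 of 6 choroid plexus markers fell, and of 9 microglia markers 2 rose and 1 fell. Choroid plexus markers reached 392 CPM in VTA female water and 1045 in male water libraries, against at most 57.9 and 26.2 with fentanyl. The calls without either of these libraries are given below, and the part of the other markers in the results was not tested. Averaged over the sexes 4 of the 10 factors fell, against 23.1% of all genes: Nkx6-2 (-0.51 ± 0.11 SE, adjusted p = 0.00376), Olig1 (-0.39 ± 0.10, adjusted p = 0.0129), Olig2 (-0.36 ± 0.11, adjusted p = 0.0236) and Sox10, which drives the oligodendrocyte programme (-0.36 ± 0.11, adjusted p = 0.0268). Of the 32 other myelin genes 2 fell, the deacetylase gene Sirt2 (-0.30 ± 0.08) and Gsn, gelsolin (-0.39 ± 0.13). Of the 11 early genes 2 fell, Cspg4 (-0.26 ± 0.06) and Neu4 (-0.26 ± 0.08), and Vcan rose (0.15 ± 0.05). None of these 9 passed when GC content was given offsets, where 892 genes passed in place of 4580. The fold changes were then smaller for Nkx6-2 (-0.13), Olig1 (-0.08), Olig2 (-0.12), Sox10 (-0.04), Sirt2 (-0.19), Gsn (-0.19), Cspg4 (-0.02) and Vcan (0.03), and of like size for Neu4 (-0.25). None passed with the few-gene library kept either, where 60 genes passed. There the fold changes of Nkx6-2 (-0.67) and Sirt2 (-0.44) were larger, those of Sox10 (-0.38), Olig1 (-0.35) and Olig2 (-0.33) of like size, and those of Gsn (-0.27), Cspg4 (-0.10), Neu4 (-0.10) and Vcan (-0.01) smaller. With the replicate block Gsn did not pass (-0.35, adjusted p = 0.0515 in edgeR's test) and the other 8 did. With no filter on low counts Olig2 (-0.37, adjusted p = 0.0602), Sox10 (-0.37, 0.0676), Gsn (-0.39, 0.0843) and Vcan (0.14, 0.0966) did not pass, at fold changes of like size. With exon length offsets Vcan did not (0.11, adjusted p = 0.0625). Without VTA male water 2, the VTA library with the most choroid plexus markers, Sox10 (-0.33, adjusted p = 0.0555) and Gsn (-0.39, adjusted p = 0.0519) did not pass in edgeR's test. Without VTA female water 5 Gsn (-0.28, adjusted p = 0.0521) and Vcan (0.13, adjusted p = 0.0835) did not. With 1 library left out Sox10 passed in 16 of 19 fits, Gsn in 10, Vcan in 4 and the other 6 in all 19.

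In VTA males alone 2 of the 10 factors fell, Nkx6-2 (-0.66 ± 0.16 SE) and Olig1 (-0.43 ± 0.15), against 22% of all genes. Of the 32 other myelin genes 1 fell, Sirt2 (-0.34 ± 0.11), a share well under that background. Of the 11 early genes 2 fell, Cspg4 (-0.36 ± 0.09) and Neu4 (-0.34 ± 0.11), and 2 rose, Lhfpl3 (0.56 ± 0.15) and Vcan (0.23 ± 0.08). Again none of the 7 passed with GC offsets or with the few-gene library kept. With GC offsets Neu4 (-0.32) was of like size, and Nkx6-2 (-0.14), Sirt2 (-0.16), Lhfpl3 (0.33), Vcan (0.06), Olig1 (-0.00) and Cspg4 (-0.00) were smaller. With the library kept Nkx6-2 (-0.99), Sirt2 (-0.61) and Lhfpl3 (0.88) were larger, and Olig1 (-0.35), Cspg4 (-0.03) and Neu4 (-0.02) smaller, while Vcan stood at -0.08. With the replicate block Olig1 (-0.39, adjusted p = 0.0879) and Neu4 (-0.32, adjusted p = 0.0529) did not pass in edgeR's test and the other 5 did. Olig1 also did not pass with DESeq2's size factors (-0.42, adjusted p = 0.0551), with no filter on low counts (-0.44, 0.117) or with exon length offsets (-0.33, 0.108). Nor did Vcan with the last 2 of these (0.22, adjusted p = 0.0818, and 0.15, 0.0731), nor Neu4 with exon length offsets (-0.32, 0.0527). Without VTA male water 2 Olig1 (-0.38, adjusted p = 0.126), Sirt2 (-0.32, adjusted p = 0.0746) and Neu4 (-0.32, adjusted p = 0.0783) did not pass in edgeR's test. Without VTA female water 5 all 7 did. Olig1 passed in 6 of the 19 fits that each leave out 1 library, Vcan in 9, Sirt2 and Neu4 in 12, and Nkx6-2, Cspg4 and Lhfpl3 in all 19.

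In VBT the 9 log2 fold changes ran from -0.08 to -0.21 in females and from -0.09 to -0.38 in males, and the groups overlapped for every gene. Mbp stood at 9085, 11708, 5953, 6610 and 6908 CPM in female water and at 6510, 8407, 7492, 7332 and 8504 CPM in female fentanyl libraries. Without VBT female water 2 the female values lay between -0.03 and 0.13, and without male water 3 the male values lay between -0.17 and 0.11, none passing. With all 4 libraries of few thalamus markers left out, VBT male fentanyl 4 and 5 included, the female values ran from -0.02 to 0.14 and the male values from -0.30 to -0.04, and none passed. VBT female water 2, male water 3 and male fentanyl 5 had the highest myelin gene levels of their groups, and male fentanyl 4 did not; the part of the thalamus markers in the result was not tested.

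In S1 all 9 genes had a positive log2 fold change in females (0.35 to 0.57) and in males (0.25 to 0.56), and none passed. Mag, for one, stood at 131, 113, 184, 106 and 119 CPM in female water libraries and at 97.9, 110.0, 168, 157 and 420.3 CPM in female fentanyl libraries. Of the 5 fentanyl libraries, 4 lay in or next to the range of water. Without S1 female fentanyl 5 the female values ran from -0.23 to 0.08 with a median of -0.10 in place of 0.47, and without S1 male fentanyl 2 the male values ran from -0.02 to 0.27. In S1 female fentanyl 5 the sum of the 9 genes was 9068 CPM, of the factors 468 and of the early genes 857, each the highest of 19 S1 libraries, while the 6 cortex markers, at 1553 CPM, were within the S1 range of 1257 to 1778. The sum of the 8 astrocyte markers had a lower mean with fentanyl, at 5404 ± 714 CPM against 6584 ± 523 with water in females (SD, n = 5 each) and 5608 ± 654 (n = 5) against 6405 ± 744 (n = 4) in males. The groups overlapped, none of the 8 markers passed, and their part in the result was not tested.

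In PrL the fold changes were positive in females (0.22 to 0.55) and negative in males (-0.23 to -0.60), and none passed. Opalin stood at 4.15, 5.08, 4.70, 3.53 and 9.57 CPM in female water and 14.3, 7.50, 4.66, 5.65 and 6.51 CPM in female fentanyl libraries, and at 5.44, 4.10, 7.75, 6.69 and 9.39 CPM in male water and 4.48, 5.00, 5.32, 5.31 and 3.79 CPM in male fentanyl libraries. Both pairs of groups overlapped. The difference between the sexes was -1.01 ± 0.41 on the log2 scale for Opalin (male minus female; unadjusted p = 0.0241 and adjusted p = 0.999 in edgeR's test), and for the other 8 genes between -0.58 and -0.95.

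The female values moved with single libraries. Without female fentanyl 1 the female values ran from -0.06 to 0.20, and without female water 5 from 0.66 to 1.05. With female water 5 and male water 3 left out, the libraries with dopamine neuron markers, the female values were 0.65 to 1.04, the male values -0.05 to -0.42, and none passed. The male values stayed below 0 without male water 3 alone (-0.06 to -0.42) and without male water 5 (-0.08 to -0.37), the 2 male water libraries with the highest levels. PrL male fentanyl libraries were the most even group of the region, with Mbp at 376, 380, 356, 328 and 320 CPM against 349, 266, 715, 414 and 682 CPM in male water libraries.

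NAc gave the narrowest intervals. The log2 fold changes ran from -0.04 to 0.17 in females and from -0.19 to 0.20 in males, with standard errors of 0.12 to 0.15. For Mbp the female value was 0.08 (95% interval -0.18 to 0.34) and the male value 0.02 (-0.24 to 0.28). Marker sums of the female groups had different medians: cortex markers 569 CPM with fentanyl and 997 with water, striatum markers 3215 and 1865, and the 7 neuron markers 4708 and 5330. These sums overlapped between the groups, none of the markers passed, and their part in the result was not tested. Of the lineage lists 1 gene passed in NAc males, where 0.662% of all genes did: Vcan fell by 0.57 ± 0.13 (SE, adjusted p = 0.0404). It passed in 9 of 20 fits that leave out 1 library, and with the replicate block it stood at -0.57 and did not pass (adjusted p = 0.0755). It also did not pass with no filter on low counts (-0.57, adjusted p = 0.0578) or with exon length offsets (-0.41, adjusted p = 0.0644). Cortex markers in sum ran from 90.6 to 775 CPM in NAc male fentanyl and from 364 to 704 in male water libraries, the 8 astrocyte markers from 3119 to 4009 and from 3554 to 4789, and striatum markers from 2208 to 4909 and from 2150 to 3371. None of these markers passed, and their part in the Vcan result was not tested.

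**Figure D4:**
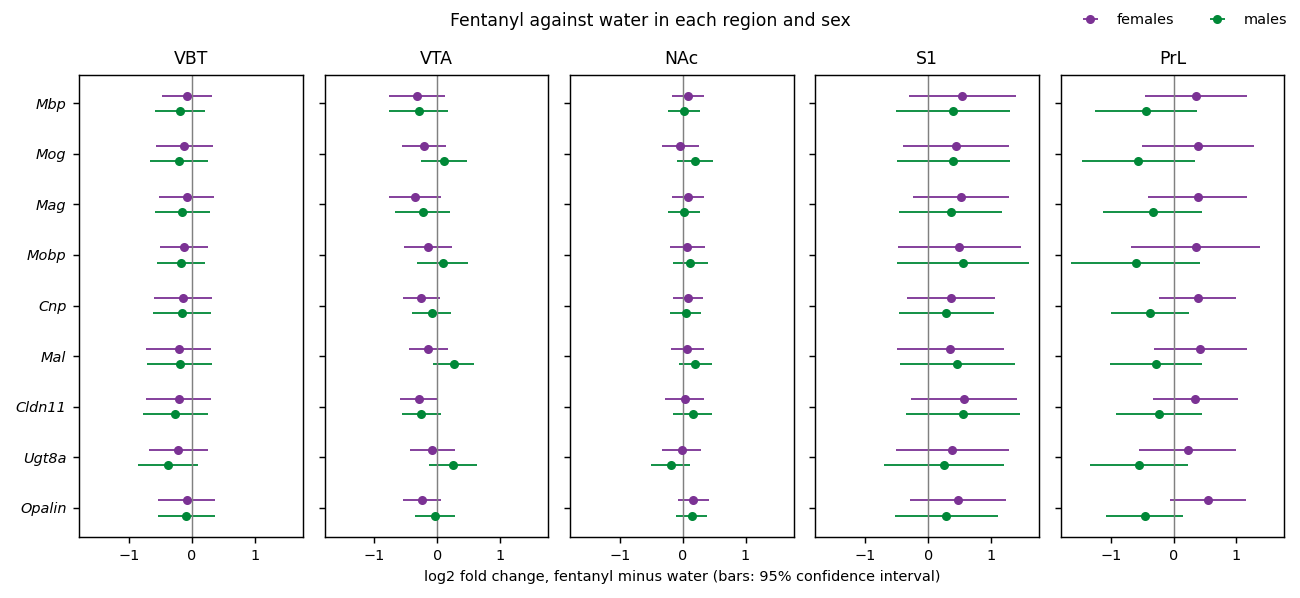
Log2 fold change of fentanyl against water for the 9 genes in each region, females in purple and males in green, with 95% confidence intervals. All 90 intervals include 0; they are narrow in NAc and wide in S1 and PrL.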

How the data were processed

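The 99 libraries were made from 10 ng of RNA each with the SMART-Seq v4 kit, per the labels' protocols. Per the submitters' processing notes, reads were counted with HTSeq on GRCm38; the aligner and annotation release are not given in the sources used here. The deposited values are counts of reads per Ensembl gene, and the authors' rows for unassigned reads were left out of totals. Symbols, exon lengths and GC content came from GENCODE M21, which holds 55154 of the 55335 identifiers. Libraries with under 10000 genes detected were left out (1). Counts were tested with edgeR 4.0.16 (quasi-likelihood F-test, TMM, filterByExpr, R 4.3.3), in 1 fit of 4 groups per region for fentanyl and 1 fit of the 48 water libraries for regions, with Benjamini-Hochberg adjustment over all genes tested. The fits were tested on simulated counts. The CPM were computed from the counts. The 9 genes and the lists were chosen with earlier results of these data known. Named beside the 9 genes were up to 3 genes per list and direction with the smallest p among those that passed (for VBT against PrL, VTA against VBT and fentanyl), and genes among the 10 with the highest correlation; some results are not reported here. Sox10 in VTA under fentanyl, Myrf, Pdgfra and Cspg4 were added after their values were seen. Alternatives were DESeq2 1.42.0 (its size factors and its Wald test), other filters, a replicate block, offsets for GC content and exon length, the share of reads outside exons as a covariate, the few-gene library kept, each library left out, and, chosen after seeing the data, the VBT or PrL libraries that stand apart left out together. Same-numbered libraries were not paired.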

Additional observations from a re-analysis of the deposited data

Results flagged for a closer look

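The highest or lowest library lay far from the rest in 21 of the 180 sets of 4 or 5 values (9 genes in 20 groups) tested with Dixon's ratio of gap to range; by chance alone about 9 would. The genes of a library move together, so these are few libraries and not 21 independent events.

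S1 female fentanyl 5 was the high one for 8 genes, with 4293 CPM of Mbp, 178 of Mog, 420.3 of Mag, 2116 of Mobp, 718 of Cnp, 717.5 of Mal, 378 of Cldn11 and 199 of Ugt8a. Its oligodendrocyte factors, 468 CPM in sum, were also the highest of S1. PrL female water 5, which also held dopamine neuron markers (32.1 CPM in sum), was the high one for 7 genes, with 982 CPM of Mbp, 33.8 of Mog, 394 of Mobp, 172 of Cnp, 132 of Mal, 49.6 of Ugt8a and 9.57 of Opalin. S1 female water 3 was the high one for Mbp (1825 CPM), Mog (82.0), Mobp (957) and Opalin (26.9). In NAc, Mbp was high in female fentanyl 5 (2861 CPM) and low in male fentanyl 3 (1969 CPM). What set these libraries apart was not tested.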

How the results depend on the processing

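The counts of the 9 genes that passed between regions were 9 of 9 under every alternative in 9 of the 10 pairs. For VTA against VBT the count was 5, 3 to 7 with 1 library left out, 5 with the replicate block (the same 5), 3 without VBT female water 2 and male water 3, 8 without PrL female water 5 and male water 3, 4 with no filter on low counts (Mag lost) and 6 with exon length offsets (Mobp gained). Within regions the count was 0 for fentanyl, with these exceptions: in VTA males 1 (Mbp, -0.54) with the share of reads outside exons as a covariate, and averaged over the sexes in VTA 3 with that covariate (Mbp, Mag and Cldn11), 1 with DESeq2's Wald test and 1 with a filter of a mean of 50 counts (Cldn11 in either), and 0 to 1 with 1 library left out (Cldn11, without VTA female fentanyl 5 or female water 2 or 3); the cause was not tested. With the replicate block it was 0 in every contrast. No call of one of the 9 genes changed direction. Of single fold changes that did not pass for fentanyl, 203 of 3528 changed sign with 1 library left out and 78 of 1548 under the other alternatives.

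The background counts moved more. With DESeq2's Wald test 920 genes passed in NAc males (129 in edgeR), 645 in S1 averaged over the sexes (203), 406 in S1 females (28), 778 in PrL averaged (133), 45 in PrL females (4), 486 in NAc between the sexes, 110 in NAc averaged, 16 in NAc females, 86 in VTA females, 109 in VBT between the sexes, 52 in VBT males, 31 in VBT females, 3 in VBT averaged, 6 in VTA between the sexes and 32 in PrL males (0 each). With GC offsets 747 passed in VTA males (4355), 892 in VTA averaged (4580), 457 in NAc males, 311 in PrL averaged and 0 in PrL females. With the few-gene library kept 42 and 60 passed in VTA males and averaged, and in the region pairs 2360 to 9488 in place of 8015 to 14677. With the covariate 394 passed in NAc averaged, 316 in NAc males, 155 in VTA females, 1 in S1 averaged, and 0 in S1 females and in PrL. With exon length offsets 77 passed in S1 averaged, 83 in NAc males and 0 in S1 and PrL females. With no filter on low counts 75 passed in NAc males and 59 in S1 females, with the filter of a mean of 50 counts 279 in NAc males and 0 in PrL females, and without PrL female water 5 and male water 3 there were 66 in PrL averaged and 1 in PrL females.

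Same-numbered libraries of a region, fentanyl against water, had correlated deviations over 0.1 in 22 of 48 pairs (-0.532 to 0.595), and 11 of 48 fentanyl libraries correlated best with their own number, so the numbers were not taken as pairs. Between regions, same-numbered water libraries of the same sex had correlations over 0.1 in 38 of 92 pairs (-0.338 to 0.429, median 0.068). The main fit of the regions took these libraries as independent. The block moved the background to 2 in NAc males, 51 in S1 females, 112 in S1 averaged and 0 in PrL females. The standard errors of the 9 log2 fold changes were widest in S1 and PrL, 0.33 to 0.49 in S1 and 0.29 to 0.49 in PrL within 1 sex.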
